A study of Mus musculus with 2 samples.

Results

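The circular RNAs (circRNAs) described here come from 10 host genes of the Wnt/beta-catenin pathway: the receptors Lrp5 and Lrp6, the genes of receptor removal and feedback Znrf3, Rnf43 and Axin2, the destruction complex genes Axin1, Apc and Gsk3b, and the effectors Ctnnb1 and Tcf7l2. Every circRNA whose deposited host name was exactly 1 of these 10 symbols was taken. That gave 94 listed circRNAs, 84 of them with at least 1 junction read, out of 31496 listed and 26265 with reads over 8174 host genes. A circRNA is a closed RNA molecule in which the end of an exon (the donor) is joined back to the start of the same or an earlier exon (the acceptor). A junction read is a sequencing read across that join, and it marks a circRNA whatever the length of the circle.

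The study sequenced RNA of intestinal cells from mice of the strain Lgr5GFP-CreERT2 at 2 months of age. Both groups carry this reporter, whose name joins Lgr5 with GFP and the inducible recombinase CreERT2. Lgr5 is itself a Wnt target and a widely used marker of stem cells at the crypt base. Cells were sorted by flow cytometry into Lgr5+ ISC (intestinal stem cells) and Lgr5- non-ISC, with no further treatment in the labels and 1 library per group. RNA was freed of ribosomal RNA and treated with RNase R, an enzyme that digests linear RNA. The sort gates, and how many mice went into each library, are not stated by the labels.

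Wnt proteins bind Frizzled receptors together with the coreceptors LRP5 and LRP6 at the cell surface. Without that signal, a cytoplasmic destruction complex of AXIN, APC and the kinase GSK3 marks beta-catenin, the product of Ctnnb1, for degradation; with it, beta-catenin accumulates and works with TCF factors in the nucleus. In the intestine this pathway sustains the stem cells of the crypt base, and it induces its own brakes: Axin2, and the ubiquitin ligases Znrf3 and Rnf43, which remove Wnt receptors from the membrane.

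The total of junction reads was 156582 for the library labelled ISC and 76331 for that labelled non-ISC, so the limit that a count of 0 allows, 3 reads, is 19.2 and 39.3 per 1000000. Reads are called "labelled ISC" or "labelled non-ISC" after their library, and where 1 value is set against another the library labelled ISC comes first. With 1 library per group no difference has a replicate check. Intervals are exact 95% counting intervals: they cover counting error only and set 1 library against the other, not cell types. The markers, from lists chosen with earlier results of these data known, went against the labels. Of 14 genes of intestinal epithelium, 13 had no reads in the library labelled ISC, and the list had 2 reads there against 514, with all 7 genes that had enough reads lower. Of 16 genes of the T lineage, 12 of 13 with enough reads were higher. The list had 7321 reads against 151, and Satb1 alone gave 4292 of the 7321. Cd3e was at 0 in both libraries, and 9 of the genes were at 0 in the library labelled non-ISC. The 12 crypt base stem cell genes, which include Axin2, Znrf3 and Rnf43, had 33 reads against 177, and 4 of 5 with enough reads were lower. Because 3 of the genes described here are in this list, it is not independent of them. All 33 reads labelled ISC came from Znrf3 (23) and Axin2 (10), and the other 10 genes had 0 there. The part of these cell types in the values below was not tested, and all directions are between the libraries as labelled. In such bulk libraries fewer cells of a type and less RNA per cell cannot be told apart.

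The 10 host genes had 424 junction reads labelled ISC (0.271% of all in that library) and 364 labelled non-ISC (0.477%). They were spread over 55 and 48 circRNAs, and 46 of the 84 had only 1 or 2 reads in all. In both libraries 19 of the 84 had reads (22.6%, 14.2 to 33.1), beside 16.7% of all 26265 circRNAs, so being read in 1 library only was the usual state of a circRNA in these data. As a share of junction reads the ratio, labelled ISC over labelled non-ISC, was 0.568 (0.4925 to 0.655), and 0.481 (0.395 to 0.5845) without Lrp6, which held the most reads. Ratios depend on what they are scaled to. Scaled instead to the library totals that follow from the deposited RPM values, every ratio is multiplied by 2.82, a shift of 1.49 on the log2 scale, and the summed ratio turns to 1.60. Ratios between 0.355 and 1 change side in this way, and this applies to each such ratio below.

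A host gene or circRNA was called higher or lower where its libraries summed to at least 10 reads, its ratio was 2-fold or more up or down, and the interval excluded 1. Of the 10 host genes, 8 had enough reads, and 3 were lower in the library labelled ISC (Lrp5, Axin2 and Ctnnb1), 0 higher and 5 not called; Rnf43 and Tcf7l2 had too few. Over all 2920 host genes with enough reads, 22.7% were lower and 26.7% higher. The median log2 ratio was -0.51 over the 8 and 0.16 over the 2920. With library totals 1 of the 8 was lower (Axin2) and 4 higher (Znrf3, Axin1, Apc and Gsk3b), beside 11.1% and 58.8% of all host genes. By the deposited count column 8 of the 10 were lower and 0 higher, beside 53.8% and 22.2% of 7304 host genes; in the library labelled ISC 79.1% of all counts lay on 1 entry, against 25.5% on the largest entry of the other. Of 15 circRNAs of these genes with at least 10 reads, 6 were lower and 1 higher, where 23% and 32.4% of all 3659 such circRNAs were. The higher one and 1 of the lower ones, both of Gsk3b, rest on a library with 0 or no listed reads.

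**Figure D1:**
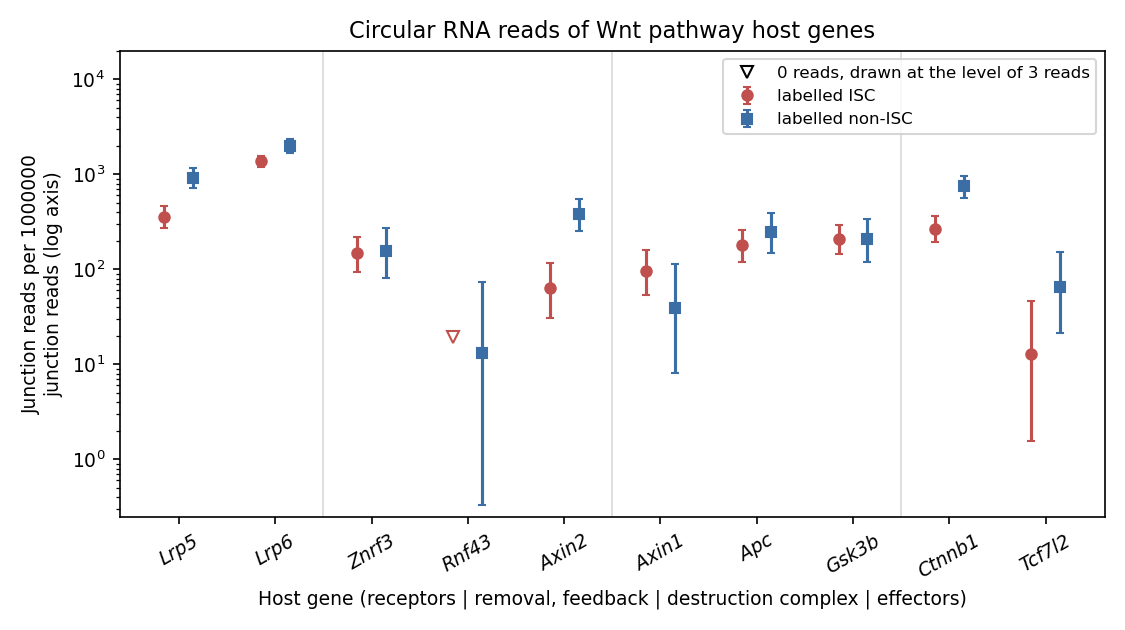
Junction reads per 1000000 junction reads of the library (log axis) for the 10 host genes, ordered by role, in the library labelled ISC (circles) and the library labelled non-ISC (squares); bars are exact 95% counting intervals and the open triangle marks 0 reads at the level of 3 reads. Lrp6 stands above the other genes in both libraries, and the intervals of Lrp5, Lrp6, Axin2 and Ctnnb1 in the library labelled ISC lie below those in the library labelled non-ISC.

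In the library labelled ISC the order of host gene levels was Lrp6, Lrp5, Ctnnb1, Gsk3b, Apc, Znrf3, Axin1, Axin2, Tcf7l2 and Rnf43. Lrp6 stood apart there, at 1373 junction reads per 1000000 against 358 for Lrp5, and the intervals of all later neighbours overlapped. In the library labelled non-ISC the order was Lrp6, Lrp5, Ctnnb1, Axin2, Apc, Gsk3b, Znrf3, Tcf7l2, Axin1 and Rnf43. Lrp6 again stood apart, at 1991 per 1000000 against 917 for Lrp5, and so did Ctnnb1 from Axin2, at 747 against 380. Axin2 was thus at place 8 in the library labelled ISC and at place 4 in the other. Lrp6 ranked 133 of 5823 host genes with reads in the library labelled ISC and 70 of 4823 in the library labelled non-ISC.

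Lrp6 encodes a coreceptor that docks AXIN at the membrane when Wnt binds. Its circRNAs (gene on the minus strand, chr6:134446476-134566965 of GRCm38) had 215 junction reads labelled ISC and 152 labelled non-ISC, a ratio of 0.690 (0.558 to 0.854), under the 2-fold rule, which turned to 1.94 with library totals and to 0.387, called lower, by the count column. Most came from 1 circle made of exon 2 alone, 394 nt long, which is coding throughout. Across its junction the end of exon 2 meets its own start. The junctions of this circle and of the circles of exons 4 to 7 and 8 to 12 are shown, because they carry the main signal of the gene and its 1 called difference; 30 bases of the donor exon are in lower case and 30 bases of the acceptor exon in capitals, 5′ to 3′ on the strand of the gene, from GENCODE M21 transcripts.
Lrp6 exon 2, chr6:134541652-134542045: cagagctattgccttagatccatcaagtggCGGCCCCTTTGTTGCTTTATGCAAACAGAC
Lrp6 exons 4 to 7, chr6:134506196-134513419: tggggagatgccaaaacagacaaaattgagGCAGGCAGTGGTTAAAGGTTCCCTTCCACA
Lrp6 exons 8 to 12, chr6:134479509-134486671: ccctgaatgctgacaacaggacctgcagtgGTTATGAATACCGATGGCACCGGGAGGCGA

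The exon 2 circle had 148 reads labelled ISC and 102 labelled non-ISC. It held 68.8% (62.2 to 75.0) and 67.1% (59.0 to 74.5) of the reads of Lrp6, so its part in the gene differed by less than the counting error. Its ratio was 0.707 (0.546 to 0.919). Next came exons 4 to 7 (898 nt), with 40 reads against 23 and a ratio of 0.848 (0.495 to 1.48). Below it, 3 circles started at exon 8. The circle of exons 8 to 12 had 3 reads labelled ISC and 9 in the other, a ratio of 0.163 (0.0283 to 0.651), and was called lower on these few reads; with library totals, at 0.458, it was not called. Exons 8 to 10 had 8 against 3, a ratio of 1.30 (0.312 to 7.61). Exons 8 to 11 had 6 reads labelled ISC and were not listed in the other. A further circle of exons 2 and 3 had 6 reads against 3. A circle that ends with the donor of exon 2 and begins at a point on no annotated exon (chr6:134541652-134545231) had 8 reads labelled non-ISC and was not listed in the other.

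Lrp5 encodes the second coreceptor of this pair. Its circRNAs (minus strand, chr19:3584828-3686564) had 56 reads labelled ISC, on 10 circRNAs, and 70 labelled non-ISC, on 14. The ratio was 0.390 (0.269 to 0.562), called lower; with library totals it was 1.10 (0.759 to 1.58), with no call. Unlike Lrp6, no circle of Lrp5 led by far. Its exon 2 also forms a circle alone. The junction of that circle is shown beside that of exons 2 to 5, since both use the same acceptor and so share the letters in capitals.
Lrp5 exon 2, chr19:3659244-3659640: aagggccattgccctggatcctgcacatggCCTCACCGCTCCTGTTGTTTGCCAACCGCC
Lrp5 exons 2 to 5, chr19:3647528-3659640: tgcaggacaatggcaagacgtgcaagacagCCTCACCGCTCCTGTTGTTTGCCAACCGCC

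The exon 2 circle of Lrp5 is 397 nt long, against 394 nt for that of Lrp6, and the aligned exons have the same base at 256 of 394 positions (65.0%). It had 10 reads labelled ISC and 4 labelled non-ISC, a ratio of 1.22 (0.3515 to 5.32). The circle of exons 2 to 5 had 7 reads against 20 and a ratio of 0.171 (0.0610 to 0.420), and was called lower. Of the reads of these 2 circles, exon 2 alone made up 58.8% (32.9 to 81.6) of 17 in the library labelled ISC and 16.7% (4.74 to 37.4) of 24 in the other, and these intervals overlap. The circle of exons 3 to 5 (chr19:3647528-3652330) had 9 reads against 12 and a ratio of 0.366 (0.136 to 0.945), also called lower. Further along the gene the circles of exons 14 to 17 (10 against 8) and 16 to 17 (7 against 6) were not called, with ratios of 0.609 (0.2165 to 1.78) and 0.569 (0.164 to 2.05). Exons 14 to 15 had 1 read against 5, and exons 10 to 11 had 7 in the library labelled ISC and were not listed in the other. With library totals neither of the 2 lower circles was called: exons 2 to 5 had 0.481 and exons 3 to 5 had 1.03. By the count column exons 2 to 5 were not called either, at 0.776.

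**Figure D2:**
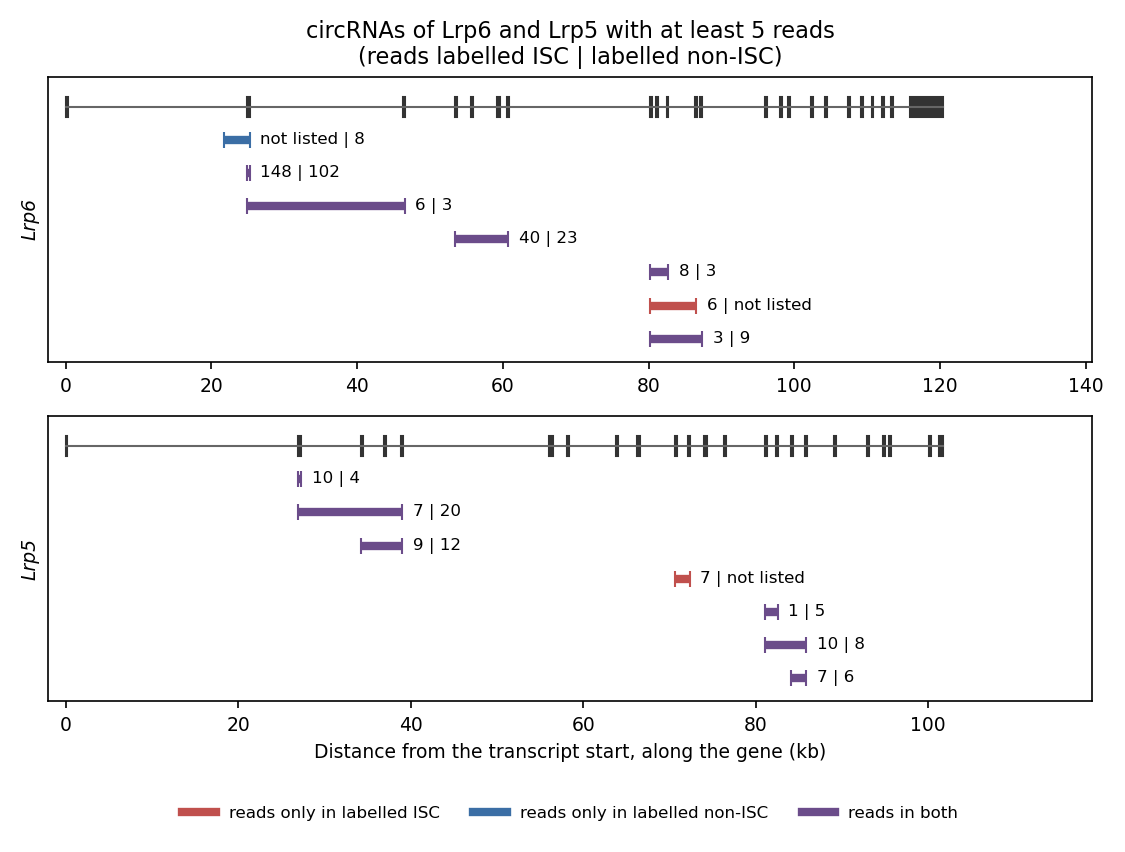
Maps of Lrp6 (top) and Lrp5 (bottom) drawn to scale as distance from the transcript start in kb, with exons as black boxes and each circRNA with at least 5 reads as a bar from acceptor to donor, labelled with its reads in the library labelled ISC and the library labelled non-ISC. Exon 2 of Lrp6 carries 148 and 102 reads, while the reads of Lrp5 are spread over 7 circles of at most 20 reads per library.

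Axin2 is a target gene of the pathway and a scaffold of the destruction complex, so that it works as negative feedback. All of its junction reads, in both libraries, came from 1 circle of exons 2 and 3 (1092 nt; gene on the plus strand, chr11:108920349-108950783), which holds the start codon. Its junction is shown with 15 bases on each side as the only one of the gene with reads.
Axin2 exons 2 to 3, chr11:108923152-108931579: gacggacagtagcgtAGAGGAGGCTCACAT

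Axin2 had 10 junction reads labelled ISC and 29 labelled non-ISC, or 63.9 (30.6 to 117) and 380 (254 to 546) per 1000000, and these intervals do not overlap. The ratio was 0.168 (0.0731 to 0.355), and it was 0.4735 (0.206 to 0.9995) with library totals, so Axin2 alone of the 8 host genes was called lower under both scalings. Set against Lrp6, which needs no scaling, there were 4.65 Axin2 reads per 100 Lrp6 reads labelled ISC and 19.1 in the other, a ratio of 0.244 (0.103 to 0.535). The deposited count column, whose values can exceed the junction reads, gave this circle 86 against 29 and a ratio of 0.885, with no call. By that column the host gene was lower (86 against 308), but on 2 entries with 0 junction reads and counts of 22 and 257. Of the crypt base stem cell list above, Axin2 was thus 1 of the 4 lower genes.

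Znrf3 and Rnf43 encode related membrane ubiquitin ligases. Znrf3 (minus strand, chr11:5276324-5444847) had 23 reads labelled ISC, on 6 circRNAs, and 12 labelled non-ISC, on 4. Its ratio of 0.934 (0.446 to 2.06) was not called and changed side with library totals (2.63), while the count column (183 against 359) gave 0.152 (0.127 to 0.182), called lower. The leading circle, chr11:5329879-5338763, had 14 reads against 7, or 60.9% and 58.3% of the gene. Its ratio was 0.975 (0.368 to 2.85), and by the count column, at 14 against 52, it was 0.0803 and called lower. It begins at the acceptor of exon 2, but its donor lies on no annotated exon. Rnf43 (plus strand, chr11:87662722-87735539) had 0 reads labelled ISC and 1 labelled non-ISC, on a circle of exons 3 to 5, so nothing can be said of its direction. The 3 genes of removal and feedback together had 33 reads against 42 and a ratio of 0.383 (0.235 to 0.619), with Axin2 giving 29 of the 42.

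Axin1 encodes the main scaffold of the destruction complex. The gene (plus strand, chr17:26138688-26195811) had 15 reads labelled ISC, on 6 circRNAs, and 3 labelled non-ISC, on 1 circRNA; none of these 7 had reads in both, which is the common case over all circRNAs. The ratio of 2.44 (0.6895 to 13.1) was not called, while with library totals it was 6.87 (1.94 to 37) and called higher. By the count column (149 against 162) it was 0.2745 (0.218 to 0.345) and called lower, so the direction of Axin1 was not settled. The 3 reads labelled non-ISC belong to an entry, chr17:26137206-26143576, that begins before the annotated gene, so that inside the gene the reads were 15 against 0. The leading circle joins exons 4 and 5 (235 nt) and had 8 reads labelled ISC, with no entry in the other. Its junction is shown as the most abundant of the gene.
Axin1 exons 4 to 5, chr17:26182490-26184314: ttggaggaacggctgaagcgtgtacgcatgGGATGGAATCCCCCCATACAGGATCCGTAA

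Gsk3b encodes a kinase that phosphorylates beta-catenin within the complex. It had 33 reads labelled ISC, on 8 circRNAs, and 16 labelled non-ISC, on 4, a ratio of 1.01 (0.538 to 1.96). The host gene was not called. None of its 12 circles had reads in both libraries. That is usual over all circRNAs, most of which have few reads. Of the 15 circRNAs of the 10 genes with at least 10 reads, 13 had reads in both libraries. The exceptions were the leading Gsk3b circles of each library, with 11 and 10 reads. The share with reads in both was not taken over all 3659 circRNAs with at least 10 reads. Whether such exceptions are unusual at these read numbers is thus not known. The leading circle of each library is shown, as they use different parts of the gene (plus strand, chr16:38089001-38246084). The first starts inside exon 1, ahead of the start codon, and has 15 bases on each side.
Gsk3b inside exon 1 to exon 2, chr16:38090369-38144453: gacaagcgatttaagCTATACAAAAGGAGT
Gsk3b exons 3 to 7, chr16:38170664-38193994: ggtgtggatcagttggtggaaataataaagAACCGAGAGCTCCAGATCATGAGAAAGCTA

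In the library labelled ISC, 5 circles started inside exon 1 and held 27 of the 33 reads (81.8%, 64.5 to 93.0). They used 2 start points, 157 and 67 bases before the start codon and inside the annotated exon, and at both the letters just before are AG, the letters of a splice acceptor. The leading one had 11 reads and ended with exon 2; the circle from the other start point to exon 2 had 7. None of the 5 had junction reads in the library labelled non-ISC, where 4 were not listed and the 11-read circle was listed with 0 junction reads and a deposited count of 25. In that library 15 of 16 reads (93.8%, 69.8 to 99.8) lay on circles starting at exon 3 or later, against 2 of 33 (6.06%, 0.743 to 20.2) in the library labelled ISC. A circle of exons 3 to 7 (531 nt) had 10 of them and was not listed in the library labelled ISC. A missing entry need not stand for 0 reads, so these contrasts are given as reads with no fold.

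**Figure D3:**
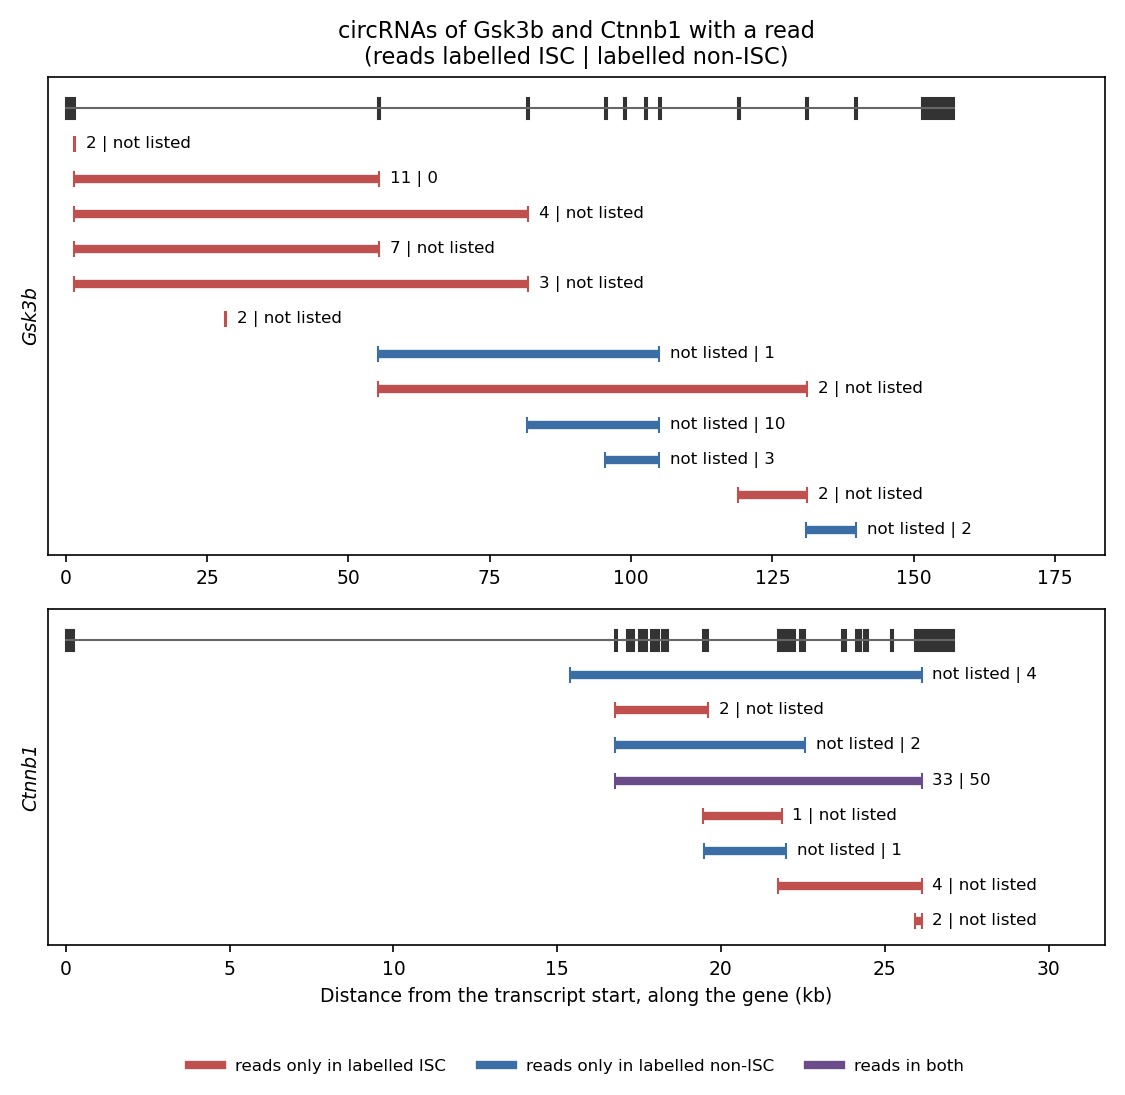
Maps of Gsk3b (top) and Ctnnb1 (bottom) to scale as distance from the transcript start in kb, with exons as black boxes and every circRNA with a read as a bar, labelled with its reads in the library labelled ISC and the library labelled non-ISC. In Gsk3b the bars that start in exon 1 (27 reads) carry reads in the library labelled ISC only; in Ctnnb1 the longest exon-2 bar carries 33 and 50 reads.

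Apc encodes the large scaffold that binds beta-catenin and is often mutated in colorectal tumours. On chromosome 18, it had 28 reads labelled ISC, on 9 circRNAs, and 19 labelled non-ISC, on 7, a ratio of 0.718 (0.387 to 1.36) that was not called and changed side with library totals (2.02). The circle of exons 2 to 5 led in the library labelled ISC, with 8 reads against 2 and a ratio of 1.95 (0.389 to 18.9), not called. With library totals its ratio was 5.49 (1.10 to 53.1) and it was called higher, on these few reads. The circle of exons 2 to 7 led in the library labelled non-ISC, with 4 against 5, and exons 9 to 11 had 3 against 4. Apc circles that begin at exon 2 hold the start codon.

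Together the 3 destruction complex genes had 76 reads against 38 and a ratio of 0.975 (0.652 to 1.48). The receptors had 271 against 222, a ratio of 0.595 (0.4965 to 0.714), and the effectors 44 against 62, a ratio of 0.346 (0.230 to 0.517). The interval of the destruction complex thus overlaps that of the receptors and not that of the effectors, with Ctnnb1 giving nearly all reads of the latter. Set against Lrp6 reads, which takes scaling out, Apc had a ratio of 1.04 (0.539 to 2.05), Gsk3b of 1.46 (0.748 to 2.94), Znrf3 of 1.36 (0.624 to 3.08) and Axin1 of 3.54 (0.973 to 19.3). None of these 4 intervals excluded 1. Lrp5, at 0.566 (0.368 to 0.868), and Ctnnb1, at 0.521 (0.323 to 0.836), lay below 1 by this measure but missed the 2-fold rule.

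**Figure D4:**
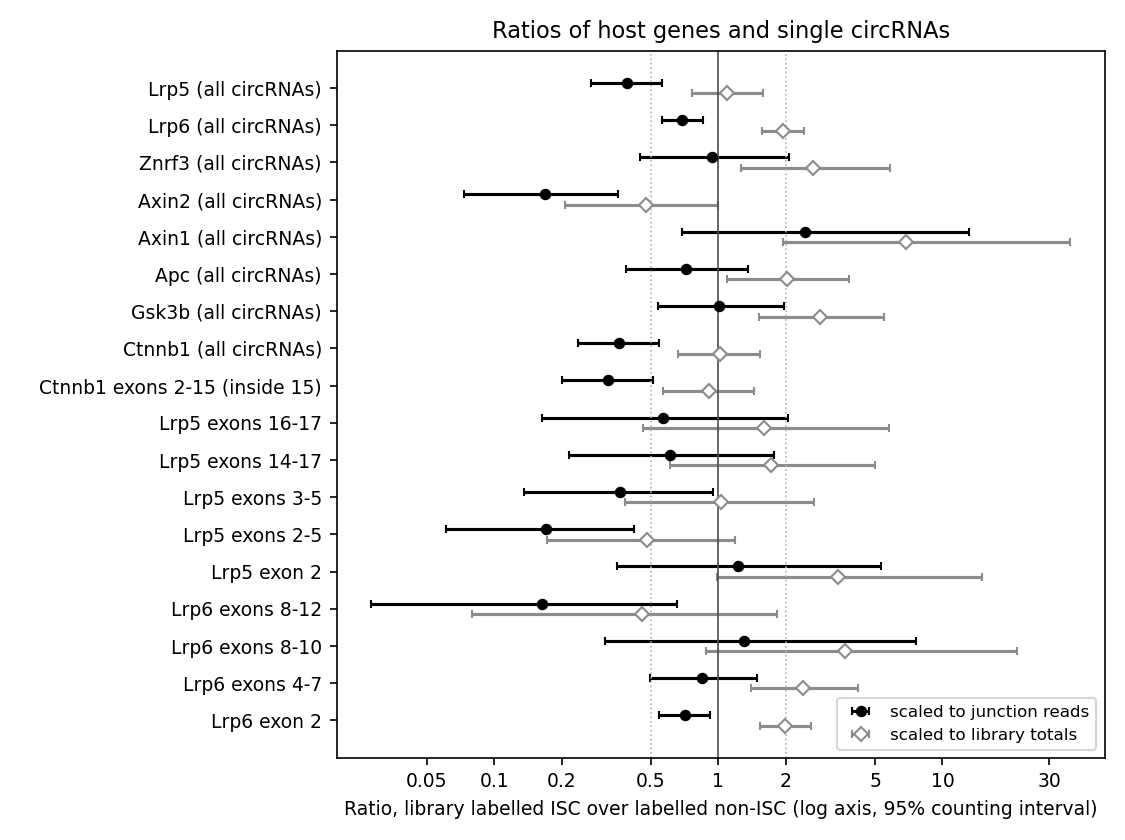
Ratio of the library labelled ISC over the library labelled non-ISC (log axis) with 95% counting intervals. Values were scaled to junction reads (filled circles) and to library totals (open diamonds). Shown are the 8 host genes with at least 10 reads, and circles of Lrp5, Lrp6 and Ctnnb1 with reads in both libraries and at least 10 in all. Dotted lines mark a 2-fold ratio either way; Axin2, at 0.168 and 0.4735, is the host gene that stays to the left of 1 under both scalings with its whole interval.

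Ctnnb1 encodes beta-catenin itself. The gene (plus strand, chr9:120929216-120960507) had 42 reads labelled ISC, on 5 circRNAs, and 57 labelled non-ISC, on 4, a ratio of 0.359 (0.235 to 0.545). It was called lower, while with library totals the ratio was 1.01 (0.6625 to 1.53). Most reads came from 1 circle that begins at the acceptor of exon 2 and ends inside exon 15, the last exon, 221 bases after its start. The junction is shown with 15 bases on each side because its donor is on no annotated exon end; the 2 letters that follow it in the exon are GT, those of a splice donor.
Ctnnb1 exon 2 to inside exon 15, chr9:120950173-120959529: taaatcgtcctttagGGTACCTGAAGCTCA

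This circle had 33 reads labelled ISC and 50 labelled non-ISC, or 78.6% (63.2 to 89.7) and 87.7% (76.3 to 94.9) of the gene, so the same circle led in both by junction reads. By the count column its shares were 89.0% and 41.7%, and it did not lead in the library labelled non-ISC. Its ratio was 0.322 (0.201 to 0.509), called lower, and 0.906 with library totals. If all annotated exons between its ends are joined it is 2406 nt long and holds the whole coding sequence of 2343 bases and the stop codon, with 48 bases before the start codon and 12 after the stop codon. Which exons the circle holds was not measured, since a junction read shows the ends only. The same end inside exon 15 was used by 2 further circles in the library labelled ISC, with 4 and 2 reads, and by 1 in the library labelled non-ISC, with 4.

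Tcf7l2 encodes TCF4, the main TCF factor of intestinal epithelium. The gene (plus strand, chr19:55741820-55933654) had 2 junction reads labelled ISC and 5 labelled non-ISC, on 3 circRNAs. Its 4 circles each had reads in 1 library only, as most circRNAs did. The ratio of 0.195 (0.0186 to 1.19) rests on fewer than 10 reads. One of its entries in the library labelled non-ISC had 1 junction read and a deposited count of 1107, the largest count among the 10 genes, so the count column was not used to rank them.

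Of the 84 circRNAs with reads, 58 (69.0%, 58.0 to 78.7) had both ends on exon ends of 1 annotated transcript, close to the 70.6% of all circRNAs. They held 77.4% of the reads of these genes, against 88.1% over all host genes, and the leading circles of Ctnnb1, Znrf3 and, in the library labelled ISC, Gsk3b make up much of the rest. Among reads on coding transcripts, circles that start at exon 2 held 62.0% (56.5 to 67.3) in the library labelled ISC and 62.9% (56.9 to 68.5) in the library labelled non-ISC, against 47.45% and 41.1% over all host genes. The Lrp6 exon 2 circle alone gave 148 of the 204 such reads labelled ISC and 102 of the 176 labelled non-ISC, so this share rests largely on 1 circle. Circles of 1 exon held 48.6% and 37.9%, against 5.74% and 6.09%, and nearly all of these are the exon 2 circles of Lrp6 and Lrp5. Circles with the start codon held 8.81% (5.98 to 12.4) and 15% (11.03 to 19.7), against 23.1% and 20.4%. The leading circle of Ctnnb1 (33 and 50 reads) is not counted there, since its donor is no exon end. Nor are the 5 circles of Gsk3b that start inside exon 1 ahead of the start codon (27 reads labelled ISC). These shares thus leave out many reads of circles that span a start codon, and the lower values cannot be read as a trait of the 10 genes. The spliced length of 57 coding circles had a median of 610 nt (192 to 2413), and that of all had 476 nt. Junction reads of the 10 genes were deposited with an equal count in 35 of 55 entries labelled ISC (63.6%) and 30 of 59 labelled non-ISC (50.8%). Over all entries the shares were 42.3% and 33.3%.

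A list of 84 other Wnt genes gave a setting for these values. Of them 34 had reads and 12 had at least 10, of which 3 were higher, 2 lower and 7 not called. Over all 2920 host genes with enough reads, 26.7% were higher and 22.7% lower, so these few calls do not set the list apart. The median log2 ratio of the 12 was 0.16, beside 0.16 over all host genes. The sum of the list was 676 reads against 334, a ratio of 0.987 (0.864 to 1.13). The 3 higher genes had no reads in the library labelled non-ISC: Tcf7 (32 reads) and Lef1 (20), the TCF factors known from T cells and part of the T lineage list, and Nlk (29), a kinase that acts on TCF factors. The 2 lower genes were the casein kinase gene Csnk1d, with 3 against 9 and a ratio of 0.163 (0.0283 to 0.651), and the corepressor gene Tle1, with 0 against 10. Beside these, Tcf7l2 had 2 against 5. Genes with at least 50 reads were not called: the coactivators Crebbp (180 against 62, ratio 1.42, 1.06 to 1.92) and Ep300 (152 against 101, ratio 0.734, 0.567 to 0.953), the casein kinases Csnk1g1 (54 against 15, ratio 1.76) and Csnk1g3 (64 against 35, ratio 0.891), and the tankyrase gene Tnks2 (53 against 29, ratio 0.891). The 13 ligand and release genes had 2 reads against 2, and the 12 secreted agonists and antagonists had 0 against 1. Lgr5, the gene of the sort, had 0 against 7.

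**Figure D5:**
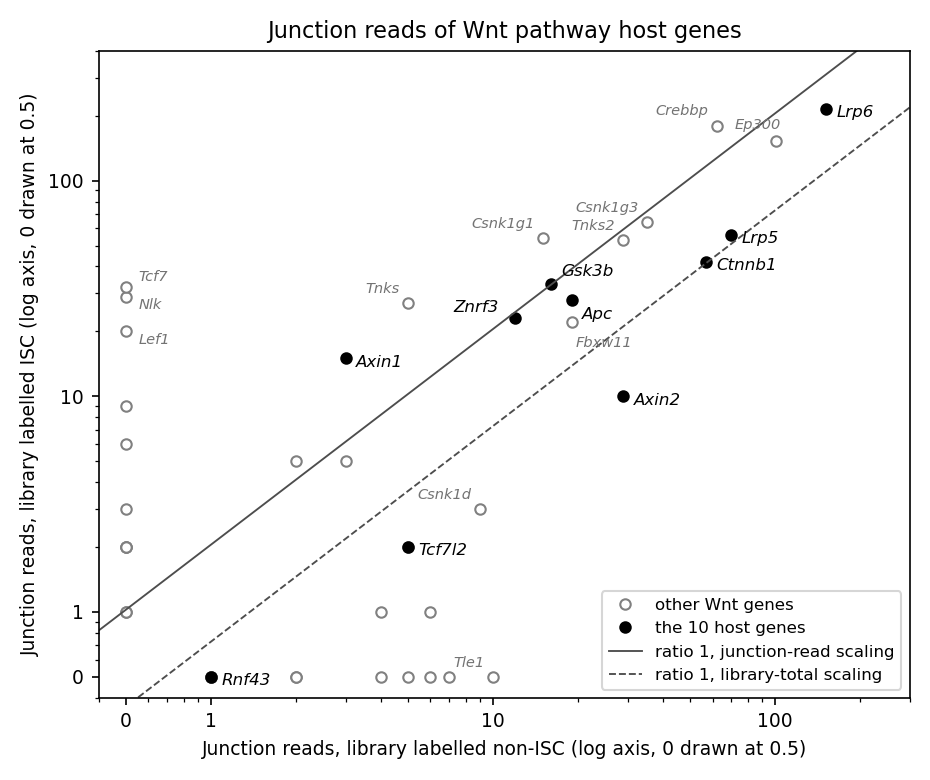
Junction reads per host gene in the library labelled ISC (vertical) and the library labelled non-ISC (horizontal), on log axes with 0 drawn at 0.5, for the 10 host genes (filled) and the other Wnt genes with reads (open). Points on the solid line have a ratio of 1 by junction-read scaling and points on the dashed line by library-total scaling; Axin2, at 10 and 29 reads, lies below both, while Lrp5 and Ctnnb1 lie near the dashed line.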

How the data were processed

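RNase R-treated RNA without ribosomal RNA was fragmented to about 200 bp and read from both ends over 150 nt, per the labels' protocols. Trimmomatic 0.36 and FastQC were used and mm9 was named as build, per the submitters' processing notes; aligner and caller: not given in the sources used here. Per the file headers, the authors deposited for each circRNA a whole-number count, its RPM value and a count of junction reads, of which the last was used here. The deposited RPM value is the count per 1000000 reads, and it gave library totals of 52636694 (labelled ISC) and 72271995 (labelled non-ISC), from which the second scaling was made. What these totals hold is not given.

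Circle ends fell on GENCODE M21 exon bounds (GRCm38) for 79.4% to 81.1% of circRNAs with reads, against at most 0.320% when shifted by 1 nt, so coordinates are taken as GRCm38 (1-based) in place of mm9. Exon numbers and sequences follow those transcripts. No genome sequence was used, and no protein sequence is shown.

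Junction reads were summed per host name, with a missing entry counted as 0, and compared as shares of each library's junction reads. Intervals are exact conditional (Clopper-Pearson) ones at 95%, computed for all host genes and circRNAs with Python 3.11.15, numpy 2.4.6, pandas 2.3.3 and scipy 1.17.1. The rule for calling host genes higher or lower was tested on simulated data, and the cover of the intervals was not. Medians used a pseudocount of 0.5 read. All 10 host genes are named, with each circRNA of at least 5 reads, and those of the other Wnt genes that were called or had at least 50 reads. The host genes, marker lists and Wnt list were chosen with earlier results of these data known. Alternatives were library totals, median-ratio scaling, the count column, circRNAs with reads in both libraries, minimums of 20 and 5 reads, halved reads and positions in place of names. Reads set against Lrp6 were added after seeing the data.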

Additional observations from a re-analysis of the deposited data

Results flagged for a closer look

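Some entries of the library labelled non-ISC were listed with 0 junction reads but a deposited count above 3, the limit of a count of 0. They are outside the junction reads used above, and their cause was not tested. Axin1 had 3 of them, with counts of 14 (chr17:26137206-26184314), 5 (chr17:26140256-26140755) and 140 (chr17:26182490-26190231). Axin2 had 2, with counts of 22 (chr11:108923152-108939414) and 257 (chr11:108941903-108943886). Gsk3b had 2, with counts of 25 (chr16:38090369-38144453, the circle that led the gene in the library labelled ISC) and 9 (chr16:38170664-38208090). Lrp6 had 1 with a count of 4 (chr6:134467509-134468854), and Rnf43 had 1 with a count of 37 (chr11:87718378-87719605). Whatever their count, 11 of the 59 entries of the 10 genes in that library had 0 junction reads, beside 6122 of all 18324 entries. Such entries are thus not particular to these genes. In the library labelled ISC every listed entry of the 10 genes had a junction read, as did all 18438 entries of that library.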

How the results depend on the processing

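With 1 library per group, no replicate could be left out, and no paired analysis was possible because each group has 1 library. Low read numbers set most limits: 46 of 84 circRNAs had 1 or 2 reads. The calls of Lrp5, Axin2 and Ctnnb1 as lower held with median-ratio scaling (a log2 shift of 0.30), shared circRNAs, both read minimums and halved reads; the summed ratio lay between 0.535 and 0.699 under these. Library totals gave 4 host genes higher and 1 lower, and ratios of 1.60 in sum, 1.10 for Lrp5, 1.94 for Lrp6, 2.63 for Znrf3, 2.02 for Apc and 1.01 for Ctnnb1. Single circles then stood at 1.99 (Lrp6 exon 2), 2.39 (Lrp6 exons 4 to 7), 1.03, 1.72 and 1.60 (Lrp5 exons 3 to 5, 14 to 17 and 16 to 17) and 2.75 (leading circle of Znrf3). Apc exons 2 to 5 stood at 5.49 and, like Lrp6 exons 4 to 7 and the leading circle of Znrf3, was called higher. Median-ratio scaling gave 1.15 for Znrf3, 1.20 for its leading circle and 1.04 for Lrp6 exons 4 to 7, and halved reads 1.18 and 1.10 for Znrf3 and that circle. The count column gave 0.154 in sum and 8 host genes lower, where 53.8% of all were; among them were Lrp5 (0.347), Ctnnb1 (0.204) and Axin2, whose call rests on 2 entries with 0 junction reads, since its circle with reads had 0.885. Calls gained by it were Lrp6 (0.387) with its exon 2 circle (0.433) and Znrf3 (0.152) with its leading circle (0.0803). It also gave 0.2745 for Axin1, 0.958 for Gsk3b, 0.746 for Lrp5 exon 2 and 0.796 for Lrp6 exons 8 to 10. Of the shares of leading circles, 12 moved out of their interval by the count column and 3 did not. The leading circle of Lrp6 still led in both libraries, and those of Axin2 and Ctnnb1 in the library labelled ISC. The other leading circles lost their lead by that column. The call of Lrp5 exons 3 to 5 was lost with median-ratio scaling (0.45) and halved reads (0.315), and that of Lrp6 exons 8 to 12 with a minimum of 20 reads and halved reads. Set against Lrp6, Znrf3 had 1.36 and Apc 1.04. Where the alternative itself does not show it, the cause was not tested.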
